A study of Homo sapiens with 2 samples.

Results

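The genes of the replication-dependent histones were examined in PC3, an established prostate cancer cell line, after knockdown of SUB1, a transcriptional coactivator. The members were all gene probes of an Agilent whole human genome array whose gene name began with HIST1H, HIST2H, HIST3H or HIST4H, the names used at the time for the histone genes that lie in clusters. This gave 85 of 41000 probes, for 64 genes, and every one of them had a ratio on both arrays. PC3 cells were transfected with SUB1 siRNA 1, SUB1 siRNA 2 or a non-targeting control siRNA (Non-T siRNA), were transfected again with the same duplex a day later, and were harvested 72 h after the first transfection. Each of 2 dual-colour arrays on the same slide compared Non-T siRNA-treated cells (Cy3) with cells treated with 1 of the 2 SUB1 siRNAs (Cy5), so that there was 1 array per siRNA and no replicate of either. The knockdown was transient, and since the dyes were never swapped, a dye effect on a probe and an effect of the SUB1 siRNA cannot be told apart. The comparisons share the Non-T condition, and the sources used here do not say if a single Non-T extract was put on both arrays. Unless another quantity is named, a value is the log2 of SUB1 siRNA signal over Non-T siRNA signal, called the ratio, with siRNA 1 first and siRNA 2 after it.

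Histones are the proteins around which DNA is wound. The core histones H2A, H2B, H3 and H4 form the nucleosome, and the linker histone H1 binds the DNA between nucleosomes. The replication-dependent genes are made in S phase, when new DNA has to be packed. Most have no intron, and their mRNAs mostly end in a stem-loop that is bound by SLBP instead of a poly(A) tail. RNA was primed with oligo-dT for labelling, so the arrays read mainly polyadenylated RNA, and the ratios of histone genes are ratios of the labelled part of their RNA. Many members of a core histone class have coding sequences that are much alike. The sequences of the probes were not used here, and how far a probe also detects RNA of a related gene was not tested. In a culture measured in bulk, fewer cells in S phase and less histone RNA per cell cannot be told apart.

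Cy3 was well above background at 54.3% of gene spots on each array, and Cy5 at 67.2% and 64.5%. A probe was kept if 1 or both of its channels were well above background on each array, and the brightest kept probe stood for its gene, which left 19218 genes in all. Over the 209 kept probes with at least 10 spots, the median SD of the log2 ratio among spots of a probe was 0.078 and 0.074. Spots of 1 array share their RNA, so this SD leaves out differences between cultures. Each histone probe had a single spot. The targeted gene SUB1 had ratios of -3.30 and -3.26, which leaves 10.2% and 10.4% of the control signal, and all 4 of its probes were lower. All 5 markers listed for PC3 cells were kept, namely the epithelial genes KRT8, KRT18 and EPCAM, the mesenchymal gene VIM and the adhesion receptor gene CD44. Their median ratios were -0.067 and -0.23, with 2 and 0 of 5 above 0, where 54.1% and 53.6% of all genes were. CD44 had -0.83 and -1.04, at least 2-fold lower with siRNA 2, and VIM had -0.28 and -0.48. With median centring in place of loess the medians were 0.19 and 0.077, and none of the 5 was 2-fold lower. Of the markers of leukocytes, endothelial cells and fibroblasts, PTPRC was not kept. The 5 kept ones (CD3E, PECAM1, VWF, COL1A1 and DCN) had median ratios of -0.0029 and 0.043, with 2 and 3 of 5 above 0. COL1A1 had 0.66 and 0.45, PECAM1 had -0.11 and -0.37, and DCN had -0.19 and -0.11. What part, if any, any of these markers has in the histone ratios was not tested.

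Of the 64 histone genes, 58 passed the filter, and 56 of them were represented by a probe well above background in both channels on both arrays. By class, 14 of 15 H2A genes, 16 of 17 H2B genes, 12 of 12 H3 genes, 13 of 14 H4 genes and 3 of 6 H1 genes passed. The 6 that did not pass were HIST1H1A, HIST1H1B, HIST1H1T, HIST1H2AL, HIST1H2BA and HIST1H4G. No histone probe was saturated. HIST1H2AA was well above background only in the SUB1 siRNA channel, and its signal there was at least 1.29-fold higher on the siRNA 1 array and at least 1.18-fold on the other. HIST4H4 was well above background in Cy5 only, and it is given no fold because the bound was below 1.

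The classes went in different directions. By the brightest probe of each gene, H2A had the highest class medians, and 6 of its 14 genes were at least 2-fold higher with siRNA 2. With the mean of all probes of a gene, the siRNA 2 median was 0.54 for H2A and 0.63 for H2B, so their order turned. Most H2B genes had ratios above 0 too, and none reached 2-fold by the loess ratios, whereas with siRNA 2 median centring gave 3 such genes and the authors' ratios 1. Among H4 genes, 5 of 13 were at least 2-fold lower with siRNA 2 and the other 8 were not. The 3 linker histone genes that passed had ratios below 0 on both arrays, and H3 genes lay near 0. The median over the 58 genes was 0.25 and 0.39, beside a median of 0.024 and 0.024 over all genes, and it was 0.44 and 0.59 with median centring in place of loess and 0.12 and 0.20 without the filter on dim probes. With siRNA 1, 0 histone genes were at least 2-fold higher and 1 was at least 2-fold lower, where 0.208% and 0.609% of all genes were. With siRNA 2, 6 passed 2-fold upward and 5 downward, where 0.614% and 1.07% of all genes were. The rule of 2-fold is that of the methods and has no test. With median centring in place of loess, which put the median of all genes at 0.13 and 0.12, the histone counts were 3 up and 0 down for siRNA 1 and 11 up and 1 down for siRNA 2, beside 137 up and 56 down and 266 up and 101 down among all genes. The mean ratio of both siRNAs was tested against 0 in limma, with Benjamini-Hochberg adjustment over all genes. At an adjusted p of 0.05, 0 of the 58 passed, and SUB1 was the single gene of the array that did (limma, adjusted p = 0.025; 0.0052% of all genes). The adjusted p of the histone genes ran from 0.112 to 0.883. At an unadjusted p below 0.05 there were 25 higher and 8 lower histone genes of the 56 measured in both channels, where 11% of all genes were higher and 9.91% were lower. That test takes the siRNAs as 2 knockdowns of SUB1 and leaves out the spread of the control.

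**Figure D1:**
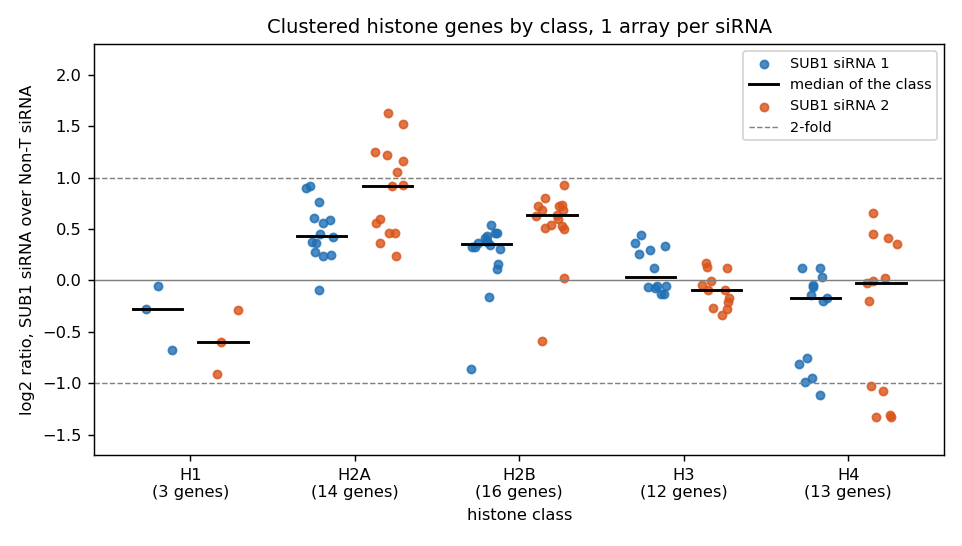
Log2 ratios (SUB1 siRNA over Non-T siRNA) for the 58 histone genes that passed the filter, by histone class on the horizontal axis. Each point is 1 gene on 1 array (blue, siRNA 1; orange, siRNA 2), black bars are class medians and dashed lines mark 2-fold; H2A and H2B lie mostly above 0, and 5 H4 genes lie apart from the others near -1.

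H2A, the partner of H2B in the nucleosome's outer dimers, had medians of 0.44 (siRNA 1) and 0.92 (siRNA 2) over its 14 genes, or 0.45 and 0.93 over the 13 measured in both channels. The median was 0.69 with siRNA 1 under median centring in place of loess, and 0.54 with siRNA 2 when the mean of all probes of a gene was taken in place of the brightest. HIST1H2AA passed the filter through its SUB1 siRNA channel alone and is left out of the counts over 13 H2A genes. It stays in the values over all 58 genes, over clusters and under alternatives, except where both channels were required. Of the 13 genes measured in both channels, 12 were above 0 with siRNA 1 and 13 with siRNA 2, where 54.1% and 53.6% of all genes were above 0. The range was -0.094 to 0.91 with siRNA 1 and 0.36 to 1.63 with siRNA 2. Of the 13, 12 had an unadjusted p below 0.05 in limma, all higher, where 11% of all genes were, and none passed after adjustment (adjusted p from 0.112 to 0.622). The highest was HIST2H2AA3 (probe at chr1:148089729-148089785 in hg18, the build named in the array files), in the HIST2 cluster. Its normalized log2 signal was 14.04 and 13.89 in Non-T siRNA-treated cells and 14.95 and 15.52 with the SUB1 siRNAs. The ratios were 0.91 and 1.63, which is 1.88-fold and 3.08-fold higher (limma, adjusted p = 0.112). A second probe of the gene gave 0.77 and 1.37. Both probes are placed on the plus strand in hg18, whereas the RefSeq table, of another build (GRCh38.p14), gives the gene on the minus strand. The gene has a near-identical copy, HIST2H2AA4, and the share of the signal that belongs to either copy was not tested.

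HIST1H2AD (chr6:26307062-26307121 in hg18) had log2 signals of 12.17 and 12.21 in Non-T siRNA-treated cells and of 13.07 and 13.73 with the SUB1 siRNAs. Its ratios of 0.90 and 1.52 were 1.87-fold and 2.88-fold higher. HIST1H2AC went from 9.06 and 9.07 to 9.61 and 10.29, with ratios of 0.56 and 1.22. HIST1H2AE went from 10.59 and 10.54 to 11.18 and 11.70, with ratios of 0.59 and 1.16. In each of these genes the Non-T signals of the arrays lay closer to each other than either SUB1 siRNA signal lay to them. HIST2H2AB had 0.76 and 1.25 by its brightest probe, and HIST3H2A had 0.61 and 1.05. With siRNA 1 none of the 6 reached 2-fold by the loess ratios, whereas with median centring 3 H2A genes did. Beside HIST1H2AA, which has only a bound, the remaining 7 H2A genes had ratios of 0.36 to 0.93 with siRNA 2, among them HIST1H2AM (0.45 and 0.93) and HIST2H2AC (0.37 and 0.91). The second probes of these genes did not give the same values, with 0.015 and -0.071 for HIST1H2AM and -0.99 and -0.83 for HIST2H2AC. That of HIST1H2AM was dim, with log2 signals of 7.24 to 7.43 against 11.27 to 12.19 for its brightest probe. HIST1H2AB was the single H2A gene below 0 on an array, with -0.094 and 0.36, and with median centring it was above 0 on both arrays.

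**Figure D2:**
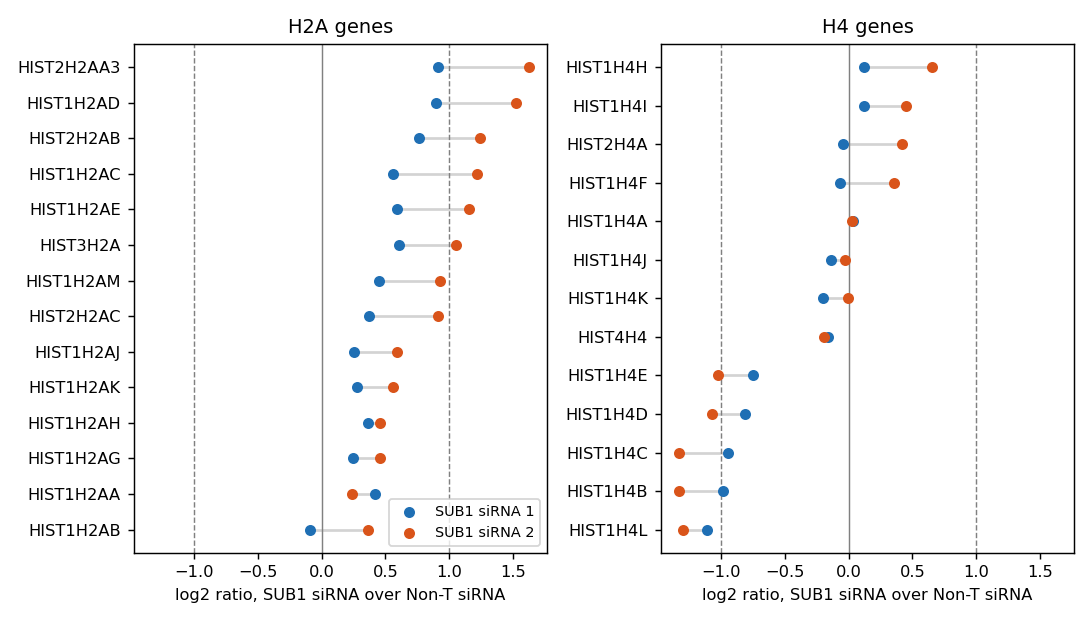
Log2 ratios (SUB1 siRNA over Non-T siRNA) for each of the 14 H2A genes (left) and 13 H4 genes (right), sorted by the mean of both arrays. Blue points are siRNA 1, orange points siRNA 2, grey lines join the 2 values of a gene and dashed lines mark 2-fold; the H4 genes HIST1H4B, HIST1H4C, HIST1H4D, HIST1H4E and HIST1H4L lie at -0.75 or below on both arrays.

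H2B genes had medians of 0.35 and 0.63, and of 0.57 with siRNA 1 under median centring. Of 16 genes, 14 and 15 were above 0, where 54.1% and 53.6% of all genes were. In limma, 14 had an unadjusted p below 0.05, of which 13 were higher and 1 lower, where 11% and 9.91% of all genes were, and none passed after adjustment. HIST1H2BH had the highest mean, with ratios of 0.54 and 0.93 from log2 signals of 11.57 and 11.44 in Non-T siRNA-treated cells and 12.11 and 12.37 with the SUB1 siRNAs. HIST1H2BL had 0.46 and 0.80. HIST1H2BJ stood at -0.16 and 0.03. The single H2B gene below 0 on both arrays was HIST1H2BD, with -0.86 and -0.59 by its brightest probe. That probe lies on the minus strand, whereas the RefSeq table gives the gene on the plus strand, and the probe on the strand of the gene gave 0.40 and 0.67. Without this probe and the HIST3H2BB probe that also lies on the strand opposite to its gene, an alternative chosen after seeing the data, 15 and 16 of the 16 genes were above 0.

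H4, which pairs with H3 in the core of the nucleosome, held genes that lay far apart. Its medians were -0.17 and -0.03, with a range of -1.11 to 0.12 and of -1.33 to 0.66. The medians of the class were near 0 and changed sign with the processing (0.011 and 0.036 with median centring in place of loess). HIST1H4L (chr6:27948928-27948987 in hg18) had log2 signals of 13.48 and 13.50 in Non-T siRNA-treated cells and of 12.37 and 12.20 with the SUB1 siRNAs. Its ratios were -1.11 and -1.30, so that 46.3% and 40.5% of the signal was left. By the loess ratios it was the single histone gene at least 2-fold changed on both arrays, and this depended on the processing. With median centring HIST1H4L had -0.79 and -0.97. HIST1H2AD (1.21 and 1.86), HIST2H2AA3 (1.32 and 2.06) and HIST2H2AB (1.04 and 1.55) were then at least 2-fold higher on both. With Feature Extraction processed signals HIST1H4C was also at least 2-fold lower on both arrays. By the authors' log2 ratios 0 H4 genes were 2-fold lower with siRNA 1. By the loess ratios HIST1H4B (chr6:26135128-26135187 in hg18) had -0.99 and -1.33, and 50.4% and 39.8% was left.

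HIST1H4C (chr6:26212447-26212506 in hg18) went from 15.65 and 15.54 to 14.70 and 14.21. Its ratios were -0.95 and -1.33, and no spot of it was saturated. HIST1H4D had -0.81 and -1.08, and HIST1H4E had -0.75 and -1.02. The mean ratios of the 5 genes lay between -0.89 and -1.21. Their moderated standard errors in limma, which draw on the spread of all genes, were 0.11 to 0.13. The adjusted p was 0.112 for each in limma. The 5 genes were below 0 on both arrays under each of the 5 alternatives that changed their values. With median centring 1 of the 5 stayed at least 2-fold lower with siRNA 2, and their median with siRNA 1 was -0.61 in place of -0.95.

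The other 8 H4 genes had medians of -0.05 and 0.19, and of 0.097 and 0.37 with median centring. By the loess ratios 3 and 5 of the 8 were above 0, where 54.1% and 53.6% of all genes were. Leaving out HIST4H4, which was not above background in Cy3, their range was -0.20 to 0.12 with siRNA 1 and -0.026 to 0.66 with siRNA 2. The highest were HIST1H4H (0.12 and 0.66) and HIST1H4I (0.12 and 0.45), which are named here because of their values. None of the 8 had an unadjusted p below 0.05. By probe position HIST1H4B, HIST1H4C, HIST1H4D and HIST1H4E followed each other with no other H4 probe between them, and HIST1H4L lay apart. Histone genes of other classes lay between them. Between HIST1H4D and HIST1H4E (probes at chr6:26296931-26296990 and chr6:26313151-26313210 in hg18) were HIST1H3D (-0.058 and -0.089), HIST1H2AD and HIST1H2BF (0.42 and 0.69).

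**Figure D3:**
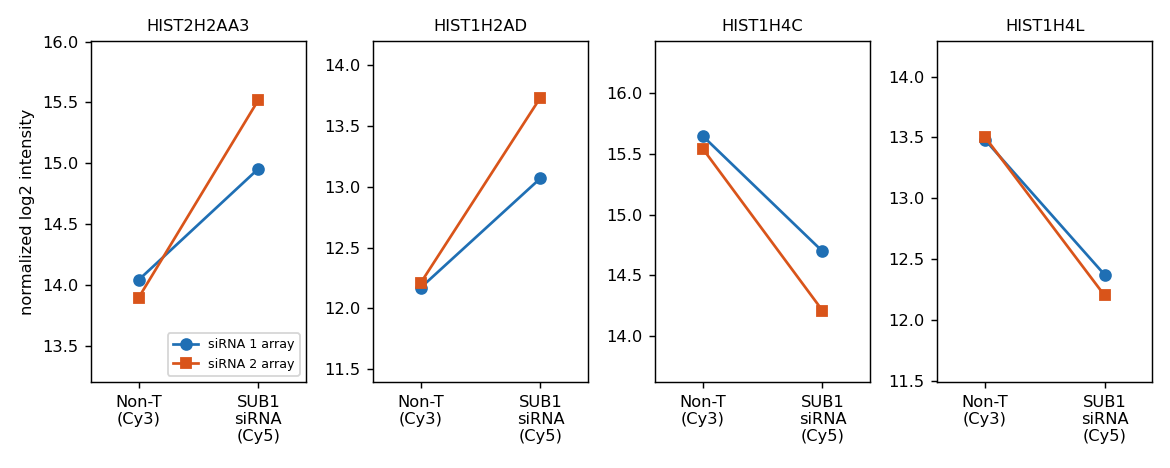
Normalized log2 intensity of 4 histone genes in each channel of both arrays: Non-T siRNA (Cy3) at left and SUB1 siRNA (Cy5) at right in each panel, with blue circles for the siRNA 1 array and orange squares for the siRNA 2 array. Each panel spans the same number of log2 units at its own level; the SUB1 siRNA signal lies above both Non-T signals for HIST2H2AA3 and HIST1H2AD and below both for HIST1H4C and HIST1H4L.

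H3, the histone that carries many of the marked lysines of its tail, had medians of 0.03 and -0.09. Of 12 genes, 6 and 3 were above 0, where 54.1% and 53.6% of all genes were. The range was -0.13 to 0.44 with siRNA 1 and -0.34 to 0.17 with siRNA 2, and no H3 gene had an unadjusted p below 0.05 in limma. HIST1H3A had 0.44 and 0.13, HIST1H3J had 0.36 and 0.17, and HIST1H3C had -0.13 and -0.34. With median centring in place of loess the medians were 0.31 and 0.16, so that the direction of this class depends on the scaling. HIST1H3E (0.25 and -0.10) and HIST1H3I (0.12 and -0.28) had ratios of opposite sign with the siRNAs. With median centring HIST1H3E was above 0 on both arrays (0.55 and 0.20), as was HIST1H3C (0.23 and 0.042).

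The linker histone genes that passed were HIST1H1C, HIST1H1D and HIST1H1E. HIST1H1D had -0.67 and -0.91, from log2 signals of 11.09 and 11.07 in Non-T siRNA-treated cells to 10.42 and 10.17 with the SUB1 siRNAs. HIST1H1E had -0.28 and -0.60, and HIST1H1C had -0.05 and -0.28. HIST1H1D and HIST1H1E had an unadjusted p below 0.05, and their adjusted p in limma was 0.112 and 0.168. HIST1H1C was above 0 with median centring (0.33 and 0.11). The 3 other genes of the class gave no signal well above background.

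The ratios were farther from 0 with siRNA 2 than with siRNA 1 in several classes. The ratio with siRNA 2 was above that with siRNA 1 in 13 of the 13 H2A genes measured in both channels and 16 of 16 H2B genes, and in 1 of 12 H3 genes and 0 of 3 H1 genes, where 49.6% of all genes had a higher ratio with siRNA 2. Of the 13 H4 genes, 6 had the higher ratio with siRNA 2 and 7 the lower. The widest gaps upward were those of HIST2H2AA3 (0.71), HIST1H2AC (0.66) and HIST1H2AD (0.62). The widest gaps downward were those of HIST1H3I (-0.39), HIST1H4C (-0.38) and HIST1H3E (-0.35). The Non-T siRNA channels of the arrays differed by a median of -0.022 (log2 signal, siRNA 2 array minus siRNA 1 array) over the H2A genes measured in both channels and -0.022 over H2B genes, and the SUB1 siRNA channels by 0.43 and 0.29. Over H3 genes the Non-T channels differed by 0.055 and the SUB1 siRNA channels by -0.15. For HIST1H3I the Non-T signal differed by 0.27 and the SUB1 siRNA signal by -0.12, so that most of its gap lay in the control channel. With 1 array per siRNA, a difference between the duplexes and a difference between arrays or cultures cannot be told apart, and no test was made.

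By cluster, the 48 genes of HIST1 on chromosome 6 had medians of 0.20 and 0.29. This cluster held 11 of the 13 H4 genes that passed, among them all 5 lower ones. The 6 genes of HIST2 on chromosome 1 had medians of 0.35 and 0.80, and the 3 of HIST3 had 0.34 and 0.51. Within H2A, the 10 HIST1 genes, HIST1H2AA among them, had medians of 0.39 and 0.58. The 3 HIST2 genes had 0.76 and 1.25, which are the values of the brightest probe of HIST2H2AB. With the mean of all probes of a gene in place of the brightest, the medians were 0.11 and 0.47 over the HIST2 cluster and 0.26 and 0.51 over its H2A genes. The clusters hold different shares of the classes, which the medians over whole clusters do not take into account.

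Some genes were read by more than 1 probe. Of 12 genes with more than 1 kept probe there were 14 pairs of probes, and in 4 genes the probes of a pair had ratios of opposite sign on both arrays. For HIST1H2BD the brightest probe (-0.86 and -0.59, at chr6:26266524-26266583 in hg18) lay on the strand opposite to the gene and to the other probe (0.40 and 0.67, at chr6:26266453-26266512). For HIST3H2BB the brightest probe gave 0.11 and 0.51 and a probe on the opposite strand gave -0.98 and -0.94. For HIST2H2AB, 0.76 and 1.25 stood against -0.24 and -0.22, and for HIST2H2AC, 0.37 and 0.91 stood against -0.99 and -0.83. The probes of these last pairs were on the same strand and shared 28 and 35 bases. The second probe of HIST2H2AB was dim, with log2 signals of 6.47 to 6.81 against 11.58 to 12.87 for the brightest. That of HIST2H2AC had 9.61 to 10.61, against 12.19 to 13.11 for its brightest. A mean of all probes weighs a dim probe like a bright one. With the mean of all probes, HIST2H2AB had 0.26 and 0.51 and was no longer 2-fold higher with siRNA 2, and HIST2H2AC had -0.31 and 0.04. In HIST2H2BE, the probes measured in both channels gave 0.33 and 0.69 and, for the dimmer of them, 0.80 and 0.82. Its dimmest probe was well above background in Cy5 alone, at signals at least 1.29-fold and 1.31-fold higher than in Cy3. Of the 5 lower H4 genes none had a second kept probe.

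**Figure D4:**
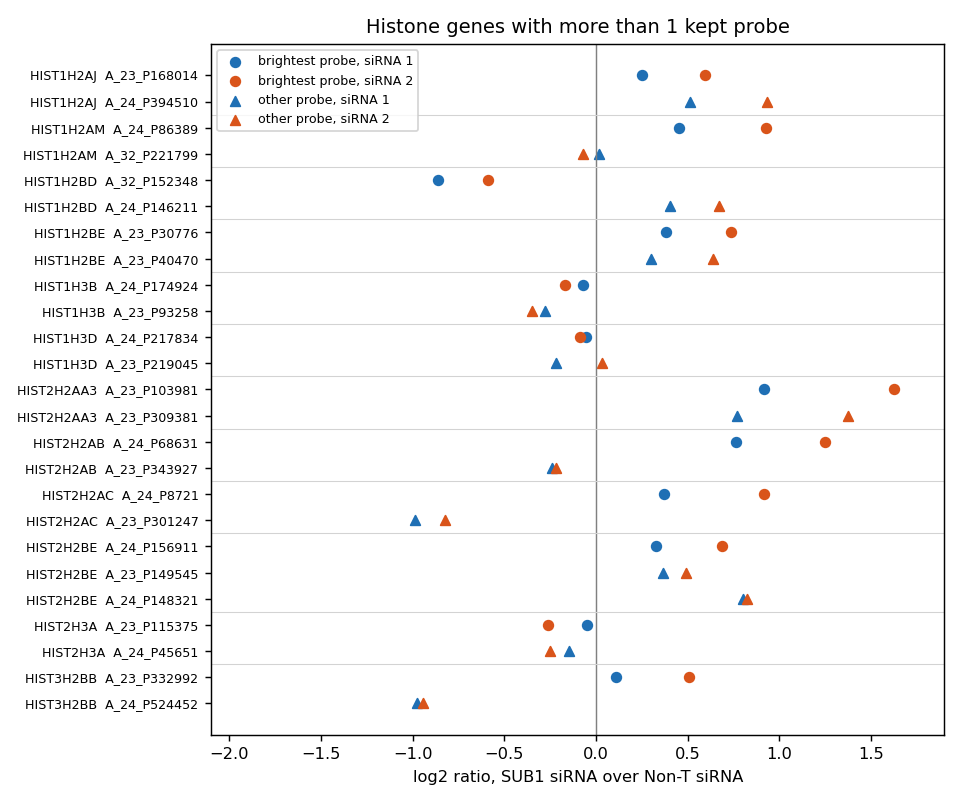
Log2 ratios (SUB1 siRNA over Non-T siRNA) of every kept probe of the 12 histone genes with more than 1 kept probe. Circles are the brightest probe of a gene and triangles the others, in blue for siRNA 1 and orange for siRNA 2; HIST1H2BD, HIST2H2AB, HIST2H2AC and HIST3H2BB have probes on both sides of 0.

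Histone promoters are short and share sequence elements. A CCAAT box is bound by NF-Y, TATAAA is the TATA box, and ATTTGCAT is the octamer bound by POU2F1 (Oct-1). For 59 of the 64 genes the RefSeq table of promoters (GRCh38.p14, 250 bases before to 50 after a start) gave 63 windows. On either strand, CCAAT was in 54 of the 63 windows (85.7%), against 34.6% of 35116 windows of all genes. TATAAA was in 66.7%, against 11.5%, and ATTTGCAT was in 41.3%, against 1.77%. The octamer was in 25 of 33 windows of H2A and H2B genes and in 1 of 30 windows of H1, H3 and H4 genes. That 1 is a window of HIST1H3D that is also the window of HIST1H2AD, and the other window of HIST1H3D held no octamer. The windows are not independent, since 10 pairs of an H2A and an H2B window share 253 to 293 bases. A motif in a shared stretch counted for both genes, in the counts of all 3 motifs. CCAAT was in every window of H1, H2A, H2B and H3 genes and in 3 of 12 windows of H4 genes. Of the lower H4 genes, 4 had a window and 1 of these held CCAAT, and of the other H4 genes that passed 2 of 7 windows did (28.6%). TATAAA was in 3 of the 4 windows of lower H4 genes (75%) and in 3 of the 7 others (42.9%). These counts are too few to compare the groups, and no test was made. A match is a string of letters and not a binding site.

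By the brightest probe and loess, HIST1H2AD and HIST2H2AB were at least 2-fold higher and HIST1H4B and HIST1H4L at least 2-fold lower with siRNA 2. On that array HIST2H2AB had 0.51 with the mean of its probes, and HIST1H4L had -0.97 with median centring. The promoter windows of these genes are shown to compare the letters of the motifs. They are from RefSeq, GRCh38.p14, all on the minus strand (HIST1H2AD at chr6:26199244-26199543, HIST2H2AB at chr1:149887916-149888215, HIST1H4B at chr6:26027234-26027533 and HIST1H4L at chr6:27873485-27873784), written 5′ to 3′, with every match to the 3 motifs on either strand in capitals.
HIST1H2AD: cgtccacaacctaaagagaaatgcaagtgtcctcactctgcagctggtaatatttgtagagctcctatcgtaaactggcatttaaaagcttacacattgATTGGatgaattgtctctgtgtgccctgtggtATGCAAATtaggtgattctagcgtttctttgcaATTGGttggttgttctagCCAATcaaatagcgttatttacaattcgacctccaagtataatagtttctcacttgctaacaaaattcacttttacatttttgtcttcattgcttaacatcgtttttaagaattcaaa
HIST2H2AB: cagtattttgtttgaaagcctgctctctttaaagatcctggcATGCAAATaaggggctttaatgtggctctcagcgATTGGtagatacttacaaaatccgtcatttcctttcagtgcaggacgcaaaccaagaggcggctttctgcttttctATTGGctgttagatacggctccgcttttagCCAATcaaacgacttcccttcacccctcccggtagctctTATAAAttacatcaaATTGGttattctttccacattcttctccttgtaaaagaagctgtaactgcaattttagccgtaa
HIST1H4B: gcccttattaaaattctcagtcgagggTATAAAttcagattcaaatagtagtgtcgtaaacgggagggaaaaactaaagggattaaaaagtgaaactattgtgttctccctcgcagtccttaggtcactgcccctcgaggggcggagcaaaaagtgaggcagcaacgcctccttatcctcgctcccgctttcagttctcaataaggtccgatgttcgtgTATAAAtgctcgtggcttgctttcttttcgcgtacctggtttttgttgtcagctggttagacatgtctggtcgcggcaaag
HIST1H4L: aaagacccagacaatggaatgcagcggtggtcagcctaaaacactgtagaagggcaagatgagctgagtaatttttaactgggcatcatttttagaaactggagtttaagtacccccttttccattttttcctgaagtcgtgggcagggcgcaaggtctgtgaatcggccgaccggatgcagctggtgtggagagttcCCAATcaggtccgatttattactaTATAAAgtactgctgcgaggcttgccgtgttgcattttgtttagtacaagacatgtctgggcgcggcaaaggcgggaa

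Many H2A and H2B genes lie head to head and share the sequence between them. Of the windows, 10 pairs of an H2A and an H2B gene on opposite strands shared 253 to 293 bases, and in 9 of them both genes passed. Taken singly, 54.1% and 53.6% of all genes were above 0. Both genes were above 0 in 8 and 9 of the 9 pairs, and the H2A gene had the higher ratio in 6 and 7. With the mean of all probes of a gene these counts were 6 and 8 and 5 and 6, so the tally depends on the probe. HIST1H2AD and HIST1H2BF, which share 278 bases, had 0.90 and 1.52 against 0.42 and 0.69. HIST1H2AC and HIST1H2BC had 0.56 and 1.22 against 0.31 and 0.53. HIST1H2AK and HIST1H2BN went the other way, with 0.28 and 0.56 against 0.38 and 0.64. The ratios of a pair come from different probes, and the order within a pair is a description with no test.

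The replacement and variant histones are made outside S phase or have special roles, and their mRNAs mostly carry a poly(A) tail. Of the 12 listed, H2AFB3 was matched to no probe. The other 11 passed the filter and had medians of -0.26 and -0.36. Of the 11, 8 were below 0 on each array, where 45.9% and 46.4% of all genes were. In limma, 8 had an unadjusted p below 0.05, of which 6 were lower and 2 higher, where 9.91% and 11% of all genes were. CENPA, the H3 variant of centromeres, had -0.97 and -1.05. H2AFX, the variant that is phosphorylated at DNA breaks, had -0.78 and -1.21. Both were at least 2-fold lower with siRNA 2, as 1.07% of all genes were, and had an adjusted p of 0.112 in limma. H1FX, a linker histone variant, had -0.76 and -0.54. H3F3A, which encodes H3.3, had 0.57 and 0.23, and H2AFZ, which encodes H2A.Z, had -0.44 and -0.67. With median centring in place of loess the medians were 0.067 and -0.13, no gene of the list was 2-fold lower, and 1 was at least 2-fold higher with siRNA 1.

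Genes of histone mRNA 3′ end processing and decay had medians of -0.04 and -0.05 over all 12 genes, and of 0.20 and 0.12 with median centring. By the loess ratios 5 were above 0 on each array, where 54.1% and 53.6% of all genes were. In limma, 3 had an unadjusted p below 0.05, of which 2 were higher and 1 lower, where 20.9% of all genes passed in either direction. SLBP, which binds the stem-loop, had -0.40 and -0.29. CPSF2, a subunit of the cleavage complex, had 0.76 and 0.16, and SYMPK, its scaffold, had 0.20 and 0.40. Genes of histone gene transcription had medians of 0.02 and 0.0075 over 11 of 12 genes, and of 0.21 and 0.19 with median centring. By the loess ratios 6 of the 11 were above 0 on each array, near the share of all genes. In limma, 1 had an unadjusted p below 0.05, which was higher. TRRAP, a part of histone acetyltransferase complexes, had 0.48 and 0.19. POU2F1, which binds the octamer, had -0.0066 and -0.74. CREBBP, an acetyltransferase, had 0.07 and 0.42. NPAT, the S phase coactivator of these genes, had -0.15 and -0.10. CASP8AP2 is in both of these lists, with 0.11 and 0.07.

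Histone chaperones and genes of deposition had medians of -0.19 and -0.42 over 16 of 16 genes. Of these, 11 and 12 were below 0, where 45.9% and 46.4% of all genes were. In limma, 9 had an unadjusted p below 0.05, of which 7 were lower and 2 higher, beside the 9.91% and 11% of all genes, and 0 passed after adjustment. HIRA, the chaperone of H3.3, was the highest, with 0.51 and 0.94. NAP1L1, a chaperone of H2A and H2B, had -0.68 and -0.52, and CHAF1B, a subunit of the CAF-1 complex that deposits H3 and H4 behind the replication fork, had -0.35 and -0.80. With median centring in place of loess the median of this list was 0.10 and -0.16. By the loess ratios no gene of the processing, transcription or chaperone lists was at least 2-fold changed on either array. With median centring, and with Feature Extraction processed signals, 1 chaperone gene was at least 2-fold higher with siRNA 2.

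**Figure D5:**
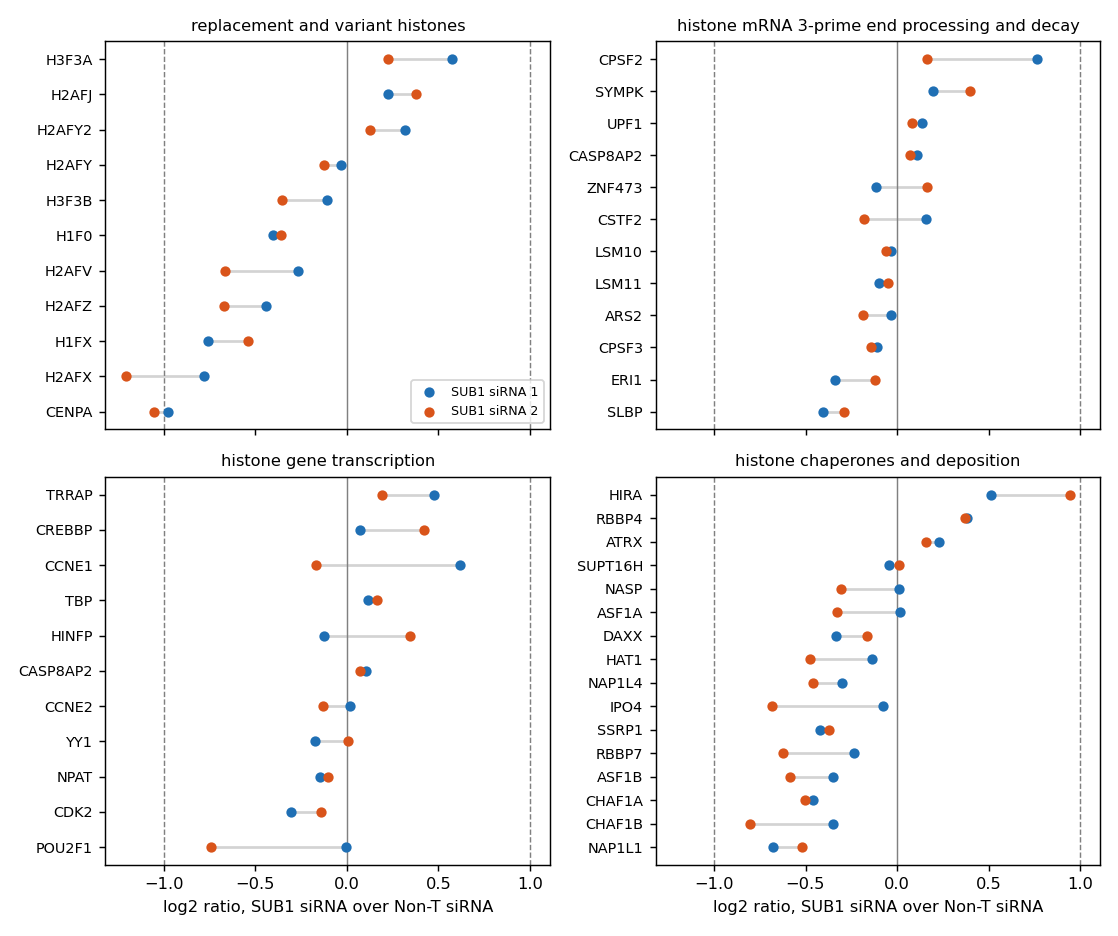
Log2 ratios (SUB1 siRNA over Non-T siRNA) for the kept genes of 4 lists of genes of histone supply, sorted by the mean of both arrays. Blue points are siRNA 1, orange points siRNA 2 and dashed lines mark 2-fold; CENPA and H2AFX pass -1 with siRNA 2, and HIRA has the highest mean of the chaperones.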

How the data were processed

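The authors hybridized 2 dual-colour arrays, and Agilent Feature Extraction (9.5.1.1 in the submitters' processing notes) gave the spot values. The deposited files hold the intensity of each spot and its local background in both channels, and a table of the authors' log2 ratios, which the methods state were loess-normalized. That table correlated with log2 ratios of Cy5 over Cy3 from median signals (r = 0.958 and 0.970 across 41000 probes, column medians of -0.0054 and -0.0068). Its scale was taken as log2 from the methods, and it served as an alternative.

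Mean intensities were background-corrected by normexp (offset 50), control spots dropped and ratios loess-normalized with a span of 0.3 (limma 3.58.1, R 4.3.3). Outlier spots (112 and 100) were left out, spots of a probe averaged and a probe kept if, on each array, 1 or both channels were well above background at a share of at least 0.5 of its spots. The brightest probe stood for a gene. Names came from a RefSeq gene table (76 histone probes by accession, 9 by synonym), and array names are printed. Probe positions are those of hg18 in the array files. The mean ratio was tested with lmFit and eBayes, and the scripts were tested on simulated data. An at least N-fold bound sets the signal against the lowest signal well above background in the other channel of that array, or the probe's own signal there where this is higher, and is open to dye bias. The number of arrays limits the precision.

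Named genes were SUB1, histone genes at least 2-fold changed on an array, the 3 largest mean ratios per class and per list, the 3 largest differences between siRNAs in each direction and genes whose probes differ in sign. Other genes named were chosen for their role or position, or after their values were seen. The histone genes, lists and tests were chosen with earlier results of these data known. Some marker genes of the lists are not reported here. Alternatives are in the closing section.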

Additional observations from a re-analysis of the deposited data

Results flagged for a closer look

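Of the 58 histone genes, 7 had ratios of opposite sign with the siRNAs, and in 3 of these both ratios were beyond the median SD among spots. The share of all genes with opposite signs was not counted, so the 7 are a description only. HIST1H2AB had -0.094 with siRNA 1 and 0.36 with siRNA 2. HIST1H3E had 0.25 and -0.097, and HIST1H3I had 0.12 and -0.28. The difference between the arrays was not tested, since each siRNA had 1 array. With median centring in place of loess HIST1H2AB was above 0 on both arrays, HIST1H3E had 0.55 and 0.20, and HIST1H3I had 0.34 and -0.050, so that the opposite signs remained for HIST1H3I alone of these genes.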

How the results depend on the processing

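In limma, 0 histone genes passed an adjusted p of 0.05 under each of 13 alternatives, where 31 to 43 had an unadjusted p below 0.05 and the lowest adjusted p of a histone gene was between 0.058 and 0.175. SUB1 itself passed in some alternatives only, with an adjusted p of 0.0040 to 0.175 where it was recorded. Of 193 comparisons of the main values with an alternative, 165 counted as unchanged and 28 moved. Some of the unchanged ones could hardly have differed. Keeping outlier spots, for instance, left every class median exactly at its main value. The 165 is therefore not a count of independent checks, and the share fixed in this way was not counted. Unchanged meant a shift within the spread among spots for medians, within 1.5 times for counts, and for SUB1 staying at least 2-fold lower.

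Median centring in place of loess raised the median of all genes to 0.13 and 0.12, and the split of all genes at least 2-fold higher and lower to 137 against 56 (siRNA 1) and 266 against 101 (siRNA 2), from 40 against 117 and from 118 against 205. Under it the histone medians were 0.44 (siRNA 1) and 0.59 (siRNA 2), and at 2-fold there were 3 histone genes up and 0 down on the siRNA 1 array, and 11 up and 1 down on the other. The class medians were -0.050 and -0.36 for H1, 0.69 and 1.22 for H2A, 0.57 and 0.87 for H2B and 0.31 and 0.16 for H3, and 0.011 for H4 with siRNA 1. Feature Extraction processed signals gave 1 higher and 2 lower histone genes with siRNA 1 and a histone median of 0.48 with siRNA 2, and 778 higher and 298 lower of all genes with siRNA 1. The authors' log2 ratios gave 1 higher and 0 lower with siRNA 1, an H3 median of 0.12 with siRNA 1 and an H2A median of 1.00 with siRNA 2. Without the filter on dim probes the histone medians were 0.12 and 0.20 and the H1 medians -0.060 and -0.22. With the mean of all probes of a gene the medians with siRNA 2 were 0.29 for all histone genes and 0.54 for H2A. The cause of these shifts was not tested.

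Of 480 comparisons of single named genes, 9 fell below 2-fold and 10 reached it. Of those under 2-fold by both the main value and the alternative, 63 moved beyond the spread among spots. Ratios at least 2-fold by both counted as unchanged whatever the shift, such as 1.63 and 2.06 for HIST2H2AA3 with siRNA 2. Of the 480, 13 changed sign. Part of the 480 could not differ, since a gene with 1 kept probe has the same ratio under the mean of all probes. Keeping outlier spots or dim probes, requiring both channels and dropping opposite-strand probes also left the lower H4 genes at their main values. Such comparisons count as unchanged without being a check. No paired analysis was possible because each siRNA had 1 array, and leaving out an array left no residual degrees of freedom, so the values of each array stand in the report. A block for the slide could not be fitted, since both arrays were on 1 slide. Dim probes, whose spots had a median SD of 0.089 and 0.084 against 0.070 and 0.069 for brighter ones, are the least precise.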
